A study of Mus musculus with 25 samples.

Results

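The positive limb of the molecular clock consists of 4 genes, *Arntl* (*Bmal1*), its paralog *Arntl2* (*Bmal2*), and the partner genes *Clock* and *Npas2*, which were selected by symbol from the 50559 genes of the count table. All 4 passed the minimum of 10 counts in total over the 24 immunoprecipitated libraries, as did 21738 genes in all. They were measured in mRNA bound to ribosomes of spinal cord cholinergic neurons, isolated by immunoprecipitation (IP) of a hemagglutinin (HA) tag from controls, which carried *ChAT-Cre* and *RiboTag* fx/+ but no floxed *Bmal1* allele and are named wild-type in the labels, and from *ChAT-BKO* mice, which had the same alleles together with *Bmal1* fx/fx. All were 6-month-old male mice on the C57BL/6J background, kept in a light/dark cycle and sampled at Zeitgeber time (ZT) 8, in the light period, or at ZT20, in the dark period. There were 6 libraries in each of the 4 conditions, each from 1 spinal cord, beside 1 pooled input library of whole spinal cord RNA, which has no replicate. Cre driven by *Chat* acts in every cell that uses this promoter, and it switches on the ribosome tag and deletes *Bmal1* in the same cells, so the tag follows the cells in which deletion was aimed at. The question that these libraries address here is which of the 4 activator transcripts differ between *ChAT-BKO* and control neurons, and at which time of day.

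BMAL1 and CLOCK are bHLH-PAS transcription factors, which pair through their PAS domains and bind DNA as a heterodimer at E-boxes, short elements in the promoters of *Per*, *Cry*, *Nr1d1*, *Nr1d2* and other clock genes. PER and CRY proteins then block the heterodimer, and the nuclear receptors REV-ERB (*Nr1d1*, *Nr1d2*) and ROR compete at a further element, the RORE, to repress or activate *Bmal1*, *Clock* and *Npas2*. NPAS2 can take the place of CLOCK as the partner in neurons, and BMAL2 is the closest relative of BMAL1. Loss of *Bmal1* alone stops the daily activity rhythm of mice kept in darkness.

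Total counts ran from 4.04 to 31.7 M per IP library (median 12.0 M) and came to 7.40 M in the input, so that the limit allowed by a count of 0, taken as 3 counts, lay between 0.0947 and 0.743 CPM. Levels are given as CPM, the count of a gene relative to the size of its library, with library sizes scaled by the trimmed mean of M-values (TMM). Of 6 cholinergic markers, 6 were above the input in the IP libraries, with a median log2 ratio of 2.62, whereas 0 of 6 astrocyte, 0 of 6 oligodendrocyte, 0 of 6 microglial and 0 of 6 endothelial markers were above it. Markers of excitatory and inhibitory neurons had a median log2 ratio of -1.33, and 1 of these 6 was above the input. The 4 genes are expressed at low to middle levels, and per kilobase of exon they ranked at percentile 38.9 (*Arntl*), 34.1 (*Arntl2*), 47.6 (*Clock*) and 30.5 (*Npas2*) of the 18934 tested genes with an annotated length.

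*Arntl* encodes BMAL1, the obligate partner in the heterodimer and the gene targeted in *ChAT-BKO* mice. It lies on the plus strand of chromosome 7 (GRCm38, chr7:113207465-113314126, ENSMUSG00000055116.8), with up to 21 exons per transcript. In controls, *Arntl* levels at ZT8 were lowest at 6.22, median 8.55 and highest at 9.99 CPM, and at ZT20 they were 7.60, 8.50 and 10.9 CPM. In *ChAT-BKO* neurons, the corresponding levels were 1.97, 2.60 and 3.30 CPM at ZT8, and 1.35, 1.81 and 2.80 CPM at ZT20. Every *ChAT-BKO* library was below every control library, at both time points.

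*Arntl* was lower in *ChAT-BKO* neurons by a log2 fold change of -1.64 at ZT8 (SE 0.16, 95% interval -1.98 to -1.31, adjusted p = 1.56e-05 from edgeR), which leaves 32.0% of the control level. At ZT20 the log2 fold change was -2.08 (SE 0.16, 95% interval -2.41 to -1.74, adjusted p = 1.98e-07 from edgeR), which leaves 23.7%. *Arntl* was the only 1 of the 4 genes called (adjusted p under 0.05), at ZT8 as at ZT20, while 0.184% of all genes tested were called at ZT8 (0.0552% as lower) and 0.23% at ZT20 (0.0414% as lower). By p-value it ranked 7 of 21738 genes at ZT8 and 6 at ZT20.

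The *Arntl* reads that remained came to 9 to 56 counts per *ChAT-BKO* library at ZT8 and 7 to 53 at ZT20, against 52 to 184 and 87 to 283 in controls. These levels are above the limit of 3 counts in all 12 *ChAT-BKO* libraries. The counts cover the whole gene, and the part of *Bmal1* between its loxP sites is not given in the sources used here, so transcripts that lack the deleted part would still be counted. Each IP library pools RNA of many cells, so fewer cells with an intact allele and less RNA per cell cannot be told apart. The antisense gene *Gm45355* shares 33 exon bases with *Arntl*, and whether reads were counted by strand is not given for the counting step. RNA of other cells was also present in the *ChAT-BKO* libraries. Their 6 oligodendrocyte markers summed to 1594 to 2205 CPM at ZT8 and 1654 to 2393 CPM at ZT20, and the input held *Arntl* at 8.10 CPM. The part of such RNA in the remaining *Arntl* reads was not tested.

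**Figure D1:**
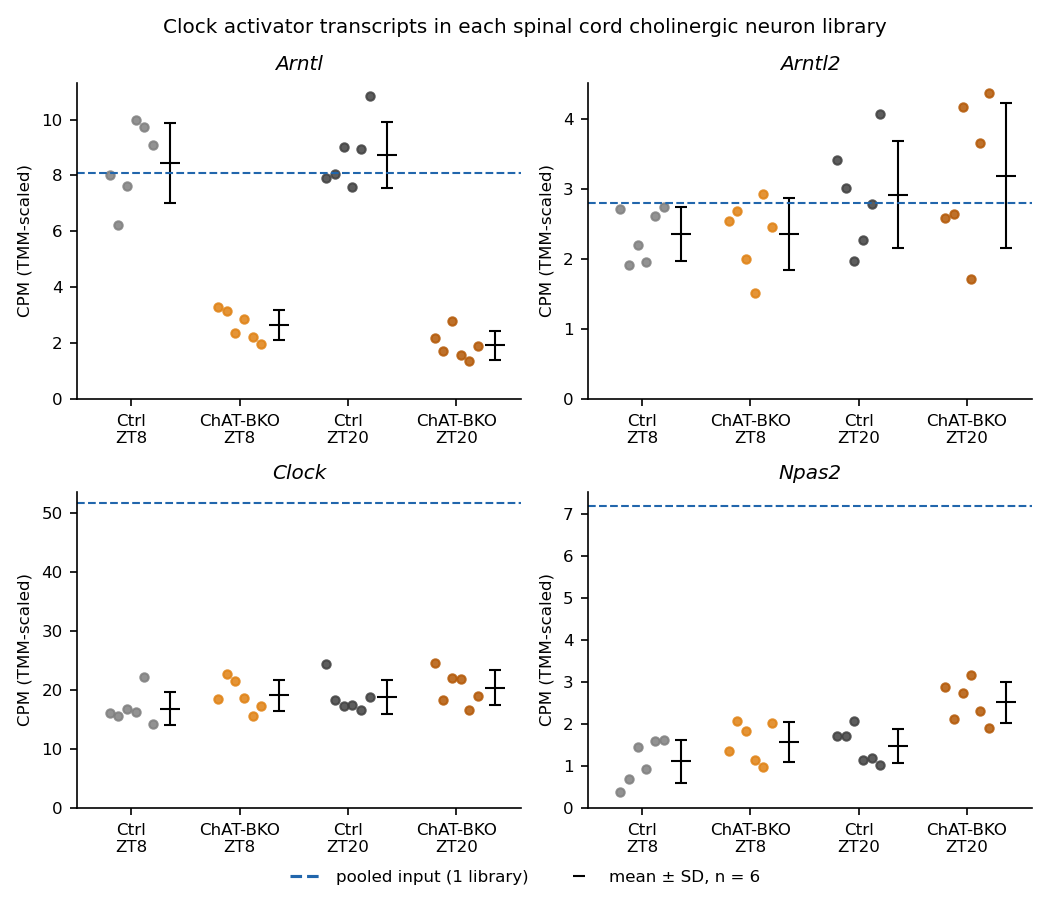
Level of each of the 4 genes in CPM (TMM-scaled, linear axes from 0) in every IP library, by condition. Points are single libraries, the black bars are the mean ± SD of 6 libraries, and the dashed line is the single pooled input library, scaled together with the IP libraries. The *ChAT-BKO* points of *Arntl* lie at 3.30 CPM or below and the control points at 6.22 CPM or above, whereas the groups of *Arntl2* and *Clock* overlap, and all points of *Clock* and *Npas2* lie below the input line.

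In order of mean level, *Arntl* was at 8.73 ± 1.18 CPM (SD, n = 6) in controls at ZT20, 8.44 ± 1.43 CPM in controls at ZT8, 2.64 ± 0.538 CPM in *ChAT-BKO* neurons at ZT8 and 1.92 ± 0.515 CPM in *ChAT-BKO* neurons at ZT20. The control conditions did not differ beyond their spread (p = 0.693, exact permutation test, two-sided, n = 6). The *ChAT-BKO* conditions overlapped, with an unadjusted p of 0.0368 (exact permutation test, two-sided, n = 6), and edgeR gave a log2 fold change of -0.39 for ZT20 against ZT8 (95% interval -0.82 to 0.04, adjusted p = 0.591).

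Levels of different genes were compared per kilobase of exon. On this scale *Arntl* was at 1.12 ± 0.191 CPM per kb in controls at ZT8 and 1.16 ± 0.157 at ZT20, against 0.351 ± 0.0715 and 0.256 ± 0.0685 in *ChAT-BKO* neurons. *Arntl2* was above *Arntl* in 0 of 6 control libraries at each time, in 5 of 6 *ChAT-BKO* libraries at ZT8 and in 6 of 6 at ZT20. *Npas2* was above *Arntl* in 0 of 6 control libraries at each time, in 3 of 6 *ChAT-BKO* libraries at ZT8 and in 6 of 6 at ZT20. By counts not divided by length, *Npas2* was above *Arntl* in 1 of 6 *ChAT-BKO* libraries at ZT8 and 4 of 6 at ZT20. For *Arntl2* these counts gave 2 of 6 and 6 of 6. The union exon length is 7.523 kb for *Arntl* and 4.791 kb for *Npas2*, but the coding lengths are 1.899 and 2.448 kb. The order of *Npas2* and *Arntl* therefore depends on the length used.

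The promoter of *Arntl* is shown because REV-ERB and ROR, whose genes are in the feedback loop onto *Bmal1*, act through the RORE. RefSeq (GRCm38.p6) gives 2 starts of *Arntl*, and the window from 250 bases before to 50 bases after the second start (chr7:113207261-113207560, plus strand) reads as follows, with the letters that match GTAGGTNA in capitals.

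Arntl promoter: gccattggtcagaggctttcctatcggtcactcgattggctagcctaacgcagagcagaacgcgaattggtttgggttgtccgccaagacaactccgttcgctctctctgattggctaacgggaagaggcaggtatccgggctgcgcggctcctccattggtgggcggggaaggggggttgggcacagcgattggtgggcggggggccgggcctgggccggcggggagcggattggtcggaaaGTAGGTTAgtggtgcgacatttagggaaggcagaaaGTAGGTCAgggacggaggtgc

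This window holds GTAGGTTA at bases -7 to 1 from the start and GTAGGTCA at 30 to 37, where base 1 is the start. The letters GTAGGTNA were chosen after this window had been seen, and on either strand they occur in 2.14% of the 32851 RefSeq windows of the same length. Neither of the *Arntl* windows holds the E-box CACGTG, the E'-box CACGTT or the D-box TTANGTAA, which occur in 7.15%, 4.68% and 2.32% of all windows. In the 3 windows of *Clock* the half-site AGGTCA, found in 16.3% of all windows, occurs once, on the minus strand of the gene at bases -119 to -114 of the third start, and it overlaps none of the other motifs there. The 1 window of *Arntl2* and the 1 window of *Npas2* hold none of these letters, which says nothing of sites outside the windows. These windows, chr6:146805280-146805579 and chr1:39194022-39194321, lie inside the genes and not at their GENCODE starts (146796055 and 39193731). The bases before those starts were not searched.

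*Arntl2* encodes BMAL2, which can also pair with CLOCK, and it lies on chromosome 6 (GRCm38, chr6:146796055-146833529, plus strand, ENSMUSG00000040187.15). In controls its lowest, median and highest levels were 1.92, 2.40 and 2.75 CPM at ZT8, and 1.97, 2.90 and 4.07 CPM at ZT20. In *ChAT-BKO* neurons they were 1.52, 2.50 and 2.94 CPM at ZT8, and 1.72, 3.15 and 4.38 CPM at ZT20. The genotypes overlapped almost fully at both times. The 4 conditions ran from 2.36 ± 0.380 CPM (controls at ZT8) to 3.19 ± 1.04 CPM (*ChAT-BKO* at ZT20). No pair of them differed beyond its spread in mean log2 CPM (smallest p of the 6 pairs = 0.126, exact permutation test, two-sided, n = 6).

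The *Arntl2* log2 fold change between genotypes was 0.0040 at ZT8 (95% interval -0.40 to 0.41, adjusted p = 1 from edgeR) and 0.11 at ZT20 (95% interval -0.35 to 0.57, adjusted p = 0.962 from edgeR). Averaged over both times it was 0.06, with an interval from -0.25 to 0.36, so a change of *Arntl2* above 1.28-fold or below 0.842-fold lies outside the interval. *Arntl2* was represented by 12 to 88 counts per library. Sampling of these counts alone gives a coefficient of variation of 21.4% among control libraries at ZT8, where 16.1% was observed, and of 15.7% among control libraries at ZT20, where 26.2% was observed.

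*Clock* encodes the usual partner of BMAL1 and lies on the minus strand of chromosome 5 (GRCm38, chr5:76209868-76304792, ENSMUSG00000029238.11), with 13727 bases of exon in all, the most of the 4 genes. Its lowest, median and highest levels in controls were 14.2, 16.2 and 22.2 CPM at ZT8, and 16.7, 17.8 and 24.4 CPM at ZT20. In *ChAT-BKO* neurons they were 15.7, 18.6 and 22.7 CPM at ZT8, and 16.6, 20.4 and 24.6 CPM at ZT20. All 4 conditions overlapped.

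The *Clock* log2 fold change between genotypes was 0.21 at ZT8 (95% interval -0.01 to 0.44, adjusted p = 1 from edgeR) and 0.14 at ZT20 (95% interval -0.08 to 0.36, adjusted p = 0.875 from edgeR). Averaged over both times it was 0.18 (95% interval 0.02 to 0.34), with an unadjusted p of 0.0325 and an adjusted p of 0.607 from edgeR, so *Clock* was not called. In order of level, the means were 20.4 ± 2.93 CPM (*ChAT-BKO* at ZT20), 19.1 ± 2.63 (*ChAT-BKO* at ZT8), 18.8 ± 2.84 (controls at ZT20) and 16.8 ± 2.76 (controls at ZT8), and the p-values between neighbors were 0.424, 0.864 and 0.227 (exact permutation test, two-sided, n = 6).

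The highest *Clock* level of each control group came from 1 library that stood apart, at 22.2 CPM (replicate 5 at ZT8) and 24.4 CPM (replicate 1 at ZT20), where the next were 16.7 and 18.8 CPM. These libraries also had the largest slope of log2 CPM against log2 exon length in their groups, at 0.311 and 0.209. With this slope as a covariate the *Clock* log2 fold change was 0.22 (adjusted p = 0.388) at ZT8 and 0.08 (adjusted p = 0.881) at ZT20 in edgeR. Without replicate 5 of the controls at ZT8 the *Clock* log2 fold change at that time was 0.30, and without replicate 1 of the controls at ZT20 it was 0.23 at that time, neither of which was called.

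*Npas2* encodes the CLOCK paralog known for its expression in the forebrain, and lies on chromosome 1 (GRCm38, chr1:39193731-39363236, plus strand, ENSMUSG00000026077.15). Counts were low, from 3 to 52 per IP library, and its mean CPM was the lowest of the 4 genes in every condition but *ChAT-BKO* at ZT20, where *Arntl* was lower. Its lowest, median and highest levels in controls were 0.387, 1.19 and 1.61 CPM at ZT8, and 1.04, 1.46 and 2.07 CPM at ZT20. In *ChAT-BKO* neurons they were 0.979, 1.59 and 2.08 CPM at ZT8, and 1.90, 2.53 and 3.17 CPM at ZT20. At ZT20, 5 of 6 *ChAT-BKO* libraries were above all controls of that time, and at ZT8, 3 of 6 were.

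The *Npas2* log2 fold change between genotypes was 0.61 at ZT8 (SE 0.30, 95% interval -0.02 to 1.24, adjusted p = 1 from edgeR) and 0.82 at ZT20 (SE 0.21, 95% interval 0.38 to 1.26, unadjusted p = 0.000858, adjusted p = 0.166). *Npas2* was therefore not called at either time. Averaged over both times, the log2 fold change was 0.72 (SE 0.18, 95% interval 0.35 to 1.08), a level 1.64-fold that of controls, with an unadjusted p of 0.000412 and an adjusted p of 0.0551 from edgeR, just above the threshold. In this averaged comparison 0.653% of all genes were called, and *Arntl* was again the 1 of the 4 genes called (log2 fold change -1.86, 95% interval -2.09 to -1.63, adjusted p = 1.68e-12 from edgeR).

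Whether *Npas2* was called over both times depended on the method. DESeq2 gave a log2 fold change of 0.72 with an adjusted p of 0.0132, limma voom with sample weights gave 0.80 with 0.0233, edgeR after its own expression filter gave 0.71 with 0.0441, and edgeR with the length slope as a covariate gave 0.68 with 0.0334, all under the threshold. When single libraries were left out, the adjusted p from edgeR ran from 0.0331 to 0.130 and passed in 4 of 24 fits, namely without replicate 5 or 6 of the controls at ZT8, replicate 3 of the controls at ZT20, or replicate 4 of *ChAT-BKO* at ZT8. The log2 fold change stayed between 0.64 and 0.80 in these 24 fits.

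The *Npas2* levels, in order, were 2.52 ± 0.487 CPM (*ChAT-BKO* at ZT20), 1.57 ± 0.471 (*ChAT-BKO* at ZT8), 1.48 ± 0.410 (controls at ZT20) and 1.11 ± 0.518 (controls at ZT8). *ChAT-BKO* neurons at ZT20 differed from those at ZT8 with an unadjusted p of 0.00866 and from controls at ZT20 with 0.00433 (exact permutation test, two-sided, n = 6), while the other neighbors did not differ beyond their spread (p = 0.729 and 0.197). The smallest p that 6 against 6 libraries allow is 0.00216, and 24 pairs of conditions were compared over the 4 genes. Counting alone gives *Npas2* a coefficient of variation of 31.5% in controls at ZT8, where 46.5% was observed, and of 21.8% in *ChAT-BKO* neurons at ZT20, where 19.3% was observed.

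Markers of other cells are given beside *Npas2* because its level was lower in the IP libraries than in the input. At ZT20, the summed levels of 6 astrocyte markers, none of which was above the input, were 179.7 to 219 CPM in controls and 175 to 263 CPM in *ChAT-BKO* neurons, and those of 6 oligodendrocyte markers were 1587 to 2098 and 1654 to 2393 CPM. The 6 markers of excitatory and inhibitory neurons summed to 388 to 480 CPM in controls and 342 to 462 CPM in *ChAT-BKO* neurons at that time. The 8 skeletal muscle markers, none of them above the input, summed to 7.98 to 27.3 CPM (median 12.0) in controls and 5.54 to 97.9 CPM (median 68.9) in *ChAT-BKO* neurons. At ZT8 the medians of the muscle markers stood the other way, at 29.9 CPM (4.26 to 107) in controls and 6.93 CPM (4.97 to 163) in *ChAT-BKO* neurons, and the astrocyte markers summed to 166 to 218 CPM and 174 to 240 CPM. All these ranges overlap, and their part in the *Npas2* levels was not tested.

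**Figure D2:**
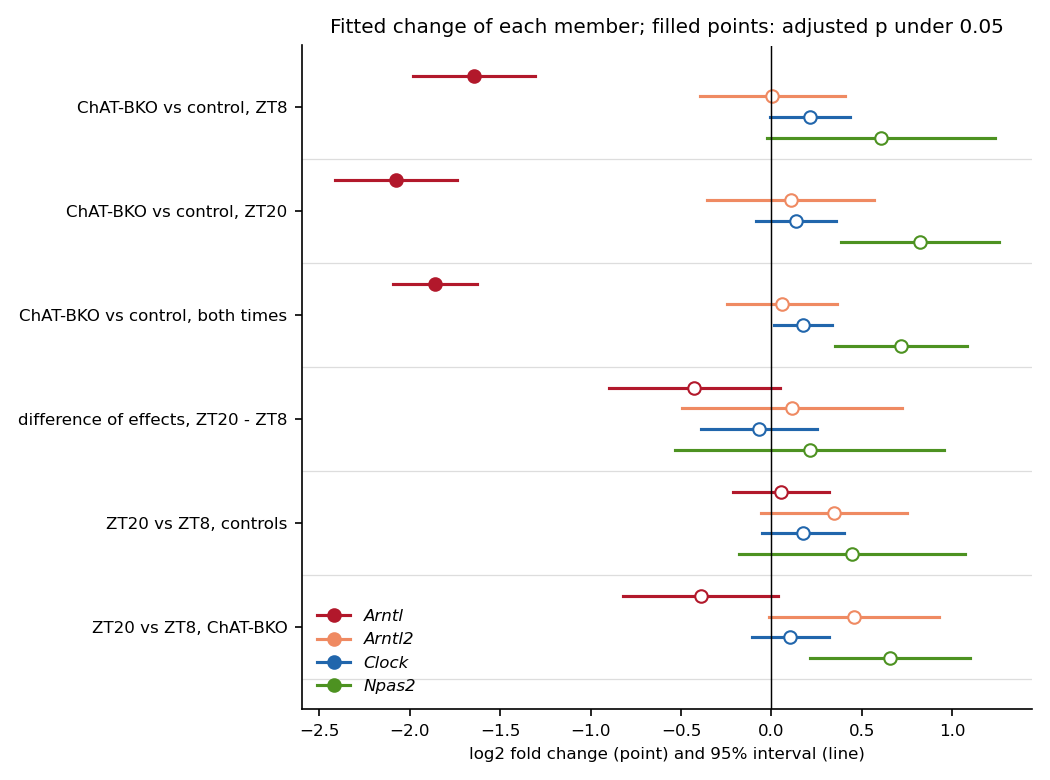
Log2 fold change (points) and its 95% interval (lines) of each gene in the 6 comparisons, from edgeR; filled points passed an adjusted p under 0.05 over all 21738 genes. The intervals of *Arntl* lie below 0 in the 3 genotype comparisons, those of *Arntl2* include 0 in all 6, and that of *Npas2* lies above 0 at ZT20, over both times, and for ZT20 against ZT8 in *ChAT-BKO* neurons, without a filled point.

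The genotype effect was not shown to differ between the time points for any of the 4 genes. The difference of the effects (ZT20 minus ZT8) was -0.43 on the log2 scale for *Arntl* (95% interval -0.90 to 0.04, unadjusted p = 0.0746), 0.11 for *Arntl2*, -0.07 for *Clock* and 0.21 for *Npas2* (adjusted p = 1.00 for each from edgeR). None of the 4 genes had an unadjusted p under 0.05, by edgeR, and DESeq2 and limma voom called 0 of them too. Of all genes, 0% were called by edgeR, and 848 had an unadjusted p under 0.05.

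Between ZT20 and ZT8, 0 of the 4 genes were called in controls, where 0.115% of all genes were, and 0 of 4 in *ChAT-BKO* neurons, where 0.285% were, by edgeR, and DESeq2 and limma voom also called 0 of 4 in each. In controls the log2 fold changes were 0.05 for *Arntl* (95% interval -0.21 to 0.32), 0.35 for *Arntl2* (-0.06 to 0.75), 0.18 for *Clock* (-0.05 to 0.40) and 0.44 for *Npas2* (-0.18 to 1.07), none with an unadjusted p under 0.05. In *ChAT-BKO* neurons they were -0.39 for *Arntl*, 0.46 for *Arntl2* (-0.01 to 0.93), 0.11 for *Clock* (-0.11 to 0.32) and 0.66 for *Npas2* (0.21 to 1.10, unadjusted p = 0.00574, adjusted p = 0.255), the 1 of the 4 genes with an unadjusted p under 0.05. Of all 21738 genes, 1793 in controls and 2048 in *ChAT-BKO* neurons had an unadjusted p under 0.05 by edgeR. The interval for *Arntl* in controls leaves out changes above 1.25-fold between these particular times, at which a rhythm with its high and low points elsewhere in the day would not be seen.

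Paralogs of a pair can be set against each other per kilobase of union exon. This allows for transcript length only as far as the union of annotated exons stands for the transcripts present. *Arntl2* made up 27.1% ± 3.58 (SD, n = 6) of the summed *Arntl* and *Arntl2* levels in controls at ZT8 and 30.4% ± 4.89 at ZT20, against 54.0% ± 8.22 and 67.8% ± 7.66 in *ChAT-BKO* neurons. The highest control share was 36.3% and the lowest *ChAT-BKO* share 41.3%, so the genotypes did not overlap, with the *Arntl2* level itself not called and the *Arntl* level called. In the input the *Arntl2* share was 31.4%.

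*Npas2* made up 15.6% ± 6.42 of the summed *Clock* and *Npas2* levels per kilobase in controls at ZT8, 18.3% ± 4.29 in controls at ZT20, 18.8% ± 3.88 in *ChAT-BKO* neurons at ZT8 and 26.1% ± 2.63 at ZT20. The shares overlapped between genotypes at both times. The partners together (*Clock* plus *Npas2*) stood at 0.958 ± 0.155 of *Arntl* plus *Arntl2* in controls at ZT8 and at 1.02 ± 0.192 at ZT20, so that transcripts for both sides of the heterodimer were near parity on this scale. In *ChAT-BKO* neurons the ratio was 2.28 ± 0.462 at ZT8 and 2.65 ± 0.998 at ZT20, every library above every control, the lowest at 1.66 and the highest control at 1.29. Because *Arntl*, the targeted gene, is in the denominator, this separation is not a result apart from the loss of *Arntl*. These ratios are of transcripts, and they move with the length used: with the coding length, the control ratio at ZT8 was 1.22 and the *Npas2* share 6.43%.

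**Figure D3:**
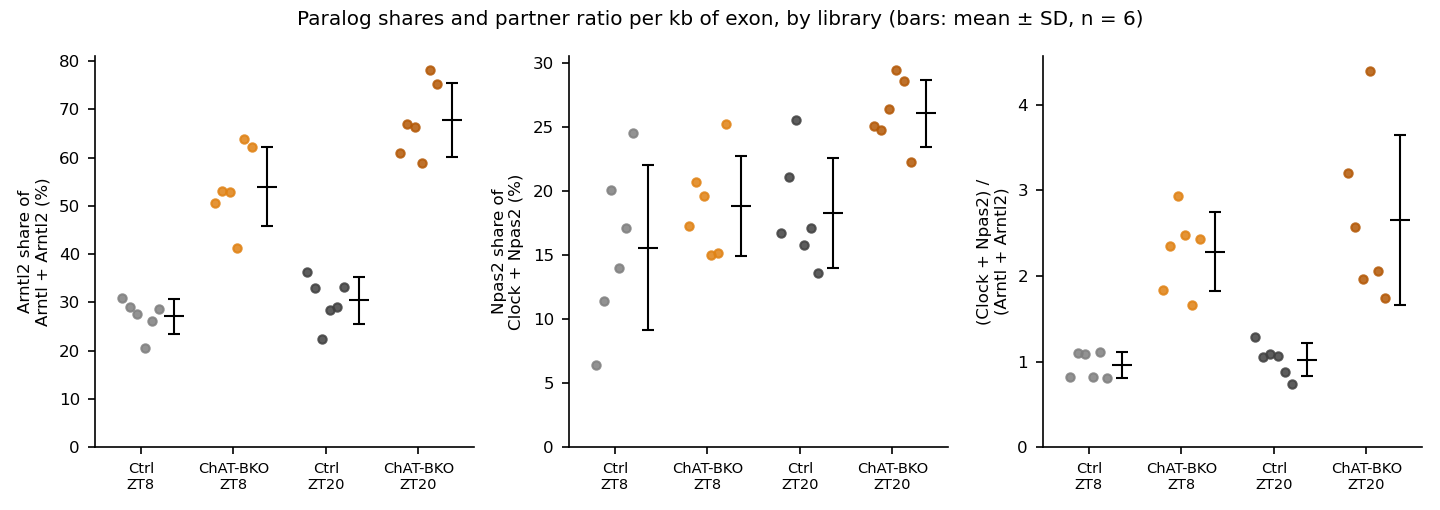
Share of *Arntl2* in *Arntl* plus *Arntl2* (left, percent), share of *Npas2* in *Clock* plus *Npas2* (middle, percent) and ratio of *Clock* plus *Npas2* to *Arntl* plus *Arntl2* (right), each from CPM per kilobase of union exon, for every IP library by condition. Points are libraries and bars are the mean ± SD of 6. The left and right panels separate the genotypes fully at both times, with *Arntl2* shares of at most 36.3% in controls and at least 41.3% in *ChAT-BKO* neurons, and the middle panel does not. *Arntl*, the targeted gene, enters the left and right panels.

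Against the pooled input, the 4 genes took different places. The input held *Arntl* at 8.10 CPM (exact 95% Poisson interval 6.44 to 10.1, counting error only), within the range of the controls, and its mean log2 ratio of IP to input was 0.06 in controls at ZT8 and 0.12 at ZT20. *Arntl2* was at 2.80 CPM in the input (1.86 to 4.05), a mean log2 ratio of -0.08 over the 24 IP libraries, with 8 of 24 above the input. *Clock* was at 51.7 CPM in the input (47.4 to 56.4) and *Npas2* at 7.20 CPM (5.64 to 9.07).

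All 24 IP libraries were below the input for *Clock*, with a mean log2 ratio of -1.45, and for *Npas2*, with a mean of -2.15. Scaled on library totals in place of TMM, the ratios were -1.91 and -2.59, and the *Arntl* ratio in controls turned to -0.40 at ZT8 and -0.33 at ZT20. So *Clock* and *Npas2* transcripts were less abundant in the cholinergic fraction than in whole spinal cord RNA on both scales, while the place of *Arntl* in control neurons relative to the input depended on the scale. With 1 input library, no test of these ratios was made.

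Other genes were described by 5 lists of clock genes (24 measured) and 1 list of other bHLH-PAS genes (14 measured). Of these 38 genes, 5 rose and 3 fell in *ChAT-BKO* neurons at ZT8 and 4 rose and 2 fell at ZT20 (adjusted p under 0.05 from edgeR over all genes). Of all genes, 0.129% rose and 0.0552% fell at ZT8, and 0.189% rose and 0.0414% fell at ZT20. Among 5 *Per* and *Cry* repressors, *Cry1* (log2 fold change 2.09 at ZT8 and 2.15 at ZT20), *Per2* (1.295 and 1.759) and *Cry2* (0.32 and 0.39) rose at both times, with adjusted p from 1.42e-10 to 0.00179, and *Per1* and *Per3* were not called. The median of this list was 0.32 at ZT8, where that of all genes was 0.00013, and 0.39 at ZT20, where it was -0.0065.

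Of 4 receptors that act at the RORE, *Nr1d2* (REV-ERBβ) fell at both times by 1.11 and 1.35 on the log2 scale. *Nr1d1* (REV-ERBα) fell by 0.72 on the log2 scale at ZT8 (edgeR, adjusted p = 4.92e-05), with a change of -0.50 at ZT20 (adjusted p = 0.140). Replicate 1 of the controls at ZT20 stood apart at 63.6 CPM. Over the 20 other settings the *Nr1d1* change at ZT20 ran from -0.60 to -0.34, and it was called in none of the 12 fits with 1 library left out. Its call at ZT20 depended on the method: DESeq2 (adjusted p = 0.0296), the replicate block (0.0185), the length slope (0.000674) and the fit of all 24 libraries (0.0404) called it, and the other 16 settings did not. *Rora* and *Rorb* were not called. The medians over these 4 were -0.40 and -0.28.

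Of 3 E-box inhibitors, *Ciart* (CHRONO) fell at both times (-1.21 and -1.25) and *Bhlhe40* and *Bhlhe41* were not called, with list medians of -0.18 and -0.10. Of 4 D-box factors, *Nfil3* (E4BP4, the repressor at D-boxes) rose at both times (0.95 and 0.96), *Hlf* rose at ZT8 (0.52, adjusted p = 0.0211) and had a value of 0.44 at ZT20 (adjusted p = 0.127 from edgeR), and *Dbp* and *Tef* were not called. The *Hlf* call at ZT8 was lost in 7 of 12 fits with 1 library left out (replicates 1, 3, 4 and 6 of the controls and 1, 3 and 6 of *ChAT-BKO*, adjusted p up to 0.0882). At ZT20, DESeq2 (0.0210), the length slope (0.0260) and the fit of all 24 libraries (0.0384) called *Hlf*. *Dbp* over both times was at -0.31 with an adjusted p of 0.0948 from edgeR, and 3 of 31 other settings called it, DESeq2 (0.0444) among them. At ZT8 (-0.38), 1 of 20 other settings called *Dbp*, and at ZT20 (-0.25) 0 of 20 did. The list medians were 0.27 and 0.19. Between the times, *Dbp* was the 1 list gene called by edgeR, with a log2 fold change of -0.86 at ZT20 in controls and -0.72 in *ChAT-BKO* neurons. In *ChAT-BKO* neurons DESeq2 also called *Per2* (0.57, adjusted p = 0.0174) and *Nfil3* (0.35, adjusted p = 0.0445) higher at ZT20, as did edgeR with the length slope, which also called *Ciart* lower in controls (-0.36, adjusted p = 0.0375).

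None of 8 clock kinases and ubiquitin ligases was called by edgeR at either time, and 0 had an unadjusted p under 0.05. The values with the smallest p were 0.07 for *Btrc* and 0.07 for *Csnk2a1* at ZT8, and 0.24 for *Fbxl21* and -0.06 for *Csnk1e* at ZT20, and the list medians were 0.04 and -0.01. Of 14 other bHLH-PAS genes, the family to which the 4 activators belong, 0 were called by edgeR at either time. Of all 21738 genes tested, 1051 at ZT8 and 1366 at ZT20 had an unadjusted p under 0.05, and of these 14 genes 3 at ZT8 and 1 at ZT20 did. Those at ZT8 were *Npas1* (-0.20), *Npas3* (-0.28) and *Epas1* (-0.21), and the one at ZT20 was *Npas1* (-0.18). *Ahr* came next at ZT20, at 0.50 with an unadjusted p of 0.0893 from edgeR, and the list medians were -0.06 and 0.06. *Npas1* over both times was at -0.19 with an adjusted p of 0.0515 from edgeR, and DESeq2 (0.0153) and limma voom (0.0236) called it.

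**Figure D4:**
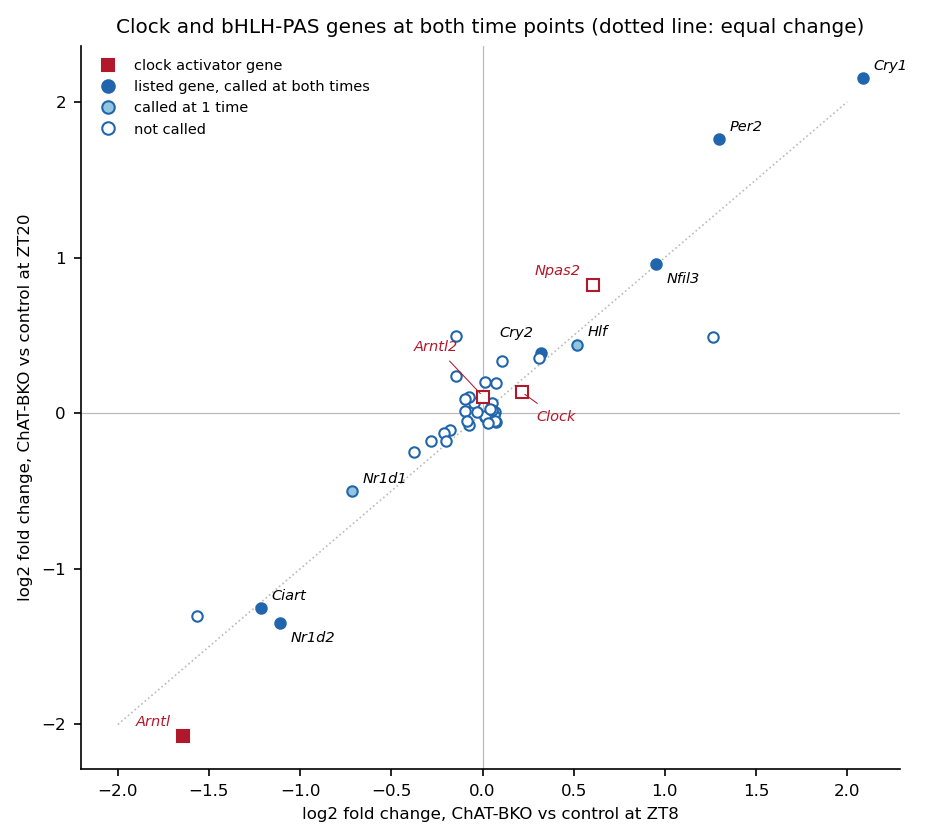
Log2 fold change in *ChAT-BKO* against control neurons at ZT8 (x axis) and ZT20 (y axis), from edgeR, for the 4 activator genes (squares) and 38 other clock and bHLH-PAS genes (circles). Filled symbols were called at both times, light ones at 1 time, and open ones at neither; the dotted line marks equal change. *Arntl* (-1.64, -2.08) lies at the lower left and *Cry1* (2.09, 2.15) at the upper right, near the line, and *Arntl2* and *Clock* lie among the genes that were not called.

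Sequences around the motifs of called list genes are shown because these elements are the ones at which the BMAL1 heterodimer and the RORE receptors act. They are from RefSeq promoter windows (GRCm38.p6), read 5′ to 3′ on the strand of the gene with 10 bases on each side, and the matched letters are in capitals. AACGTG is CACGTT on the other strand, and TGACCTAC is GTAGGTCA on the other strand.

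Cry1 E'-box, bases -79 to -74, chr10:85185118-85185143, minus strand: acacttcagaAACGTGaggtgccggt
Cry1 E-box, bases -60 to -55, chr10:85185099-85185124, minus strand: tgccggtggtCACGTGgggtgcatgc
Cry2 E'-box, bases -166 to -161, chr2:92434220-92434245, minus strand: acatggtgggAACGTGagggggcgga
Nr1d1 E'-box, bases -28 to -23, chr11:98775390-98775415, minus strand: cacagatctcAACGTGccggctgctg
Ciart E-box, bases -116 to -111, chr3:95882329-95882354, minus strand: catctagagtCACGTGttgccggtaa
Ciart E-box, bases -58 to -53, chr3:95882271-95882296, minus strand: cagggggaggCACGTGcagaaccgca
Ciart E-box, bases -44 to -39, chr3:95882257-95882282, minus strand: tgcagaaccgCACGTGtctgggaggg
Nfil3 RORE core, bases -12 to -5, chr13:52981034-52981061, minus strand: cgctcggaacTGACCTACtaacacacat

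A window was found for 8 of the 9 list genes called in any comparison. *Cry1* and *Ciart* hold the E-box, *Cry1*, *Cry2* and *Nr1d1* the E'-box, and *Nfil3* the RORE core, which was sought with letters chosen on the *Arntl* window. The same letters occur in 8.09%, 5.44% and 2.49% of the 27025 genes with a window, so that some matches are present without regard to the clock. Of the 20 list genes with a window that were not called, 4 hold the E-box, 3 the E'-box and 0 the RORE core, against 2, 3 and 1 of the 8 called ones. Genes with E-box letters in these windows include ones that rose (*Cry1*) and ones that fell (*Ciart*) in *ChAT-BKO* neurons.

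Across the 24 IP libraries, the gene whose log2 CPM was most like that of *Arntl*, of 13720 others with a mean of at least 1 CPM, was *Nr1d2* (Pearson r = 0.959), and the next were *Rps15a-ps7* and *Rps13-ps1* (0.940 and 0.931). The lowest were *Cry1* (-0.948), *Plch2* (-0.933) and *Rps13-ps2* (-0.921). After the 4 condition means were removed, r with *Nr1d2* was 0.263 and with *Cry1* 0.0879, so the likeness lies between the conditions and not within them. The libraries share their depth and composition, and these values are descriptions.

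For the other 3 genes, the most like genes kept much of their r without the condition means. They are the extremes of a search of 13720 genes over the same 24 libraries, so both values describe that choice. *Npas2* was most like *8030462N17Rik* (r = 0.806, or 0.631 without the condition means), *Cntrl* (0.747) and *Sgcd* (0.740), and least like *Qsox1* (-0.787), *Ube2v1* (-0.786) and *Kcnh2* (-0.780). *Clock* was most like *Cyria* (0.763, or 0.726), *Dennd5b* (0.747) and *Trip12* (0.741), and least like *Dph5* (-0.729), *Hscb* (-0.726) and *Gm19639* (-0.704). *Arntl2* was most like *Slc38a7* (0.782, or 0.731), *9430085M18Rik* (0.763) and *Tnks1bp1* (0.750), and least like *Txnrd3* (-0.785), *Haus7* (-0.776) and *Tamm41* (-0.772). Among the 4 activator genes themselves, *Clock* and *Npas2* had r = 0.570 (0.405 without the condition means) and *Arntl* and *Arntl2* r = -0.0487 (0.247).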

How the data were processed

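Spinal cord mRNA bound to cholinergic neuron ribosomes was sequenced with 150-bp paired-end reads as 24 IP libraries (6 per condition) and 1 pooled input. The authors aligned reads with STAR 2.7.5 to the mm10 transcriptome and used RSEM with Ensembl annotation to estimate gene counts. The expected counts that the authors deposited, which are not normalized, were rounded and used here. The table holds 50559 genes in 25 columns, of which 0 were left unused. Counts were 0 throughout for 21076 genes, and 6.11% of the values were not whole, with 0 such values in the 4 activator genes. RSEM shares reads between similar genes by estimation.

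Genes with at least 10 counts over the IP libraries (21738) were tested in R 4.3.3 with edgeR 4.0.16, by TMM and the two-sided quasi-likelihood F test, with Benjamini-Hochberg adjustment over all genes tested. Each time point was fitted on its own 12 libraries, as were the time comparisons, and the averaged effect and the difference of effects on all 24. Log2 CPM has a prior count of 2, and log2 ratios to the input have 0.1 CPM added. Conditions were taken from the sample labels. The 4 activator genes, the lists and the tests were chosen with earlier results of these data known. Named genes are the 4 activators, every called gene of each list or else the 2 with the smallest p, and the 3 most and 3 least like genes. *Per1*, *Per3*, *Rora*, *Rorb*, *Bhlhe40*, *Bhlhe41* and *Tef* are named as the remaining members of short lists, and *Epas1* after its values were seen. A gene of the lists is not reported here. *Sim1* had too few counts to be tested.

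Exon lengths and positions are from GENCODE vM21 on GRCm38, the assembly also named mm10, and lengths were matched by symbol for 87.1% of tested genes. Promoter windows are from RefSeq, GRCm38.p6. Alternatives were DESeq2 1.42.0, its size factors in edgeR, no filter, filterByExpr, a block for the replicate number, limma 3.58.1 voom with quality weights, the slope of log2 CPM on transcript length as a covariate, a fit of all 24 libraries, single libraries left out, and other lengths and scalings. The scripts were tested on simulated data. Replicates of a condition differed by more than sampling noise in all 60 pairs (chi-square per degree of freedom of at least 1.86). Intervals and limits from counts cover counting error only, since reads had no molecular identifiers.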

Additional observations from a re-analysis of the deposited data

Results flagged for a closer look

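Within the groups of 6 libraries, 80 sets of values were examined for a library far from the others (the 4 activator genes, their shares and ratio, and the named list genes), and 4 were found, where chance alone gives about 1 in 20. *Clock* in controls at ZT8 was at 22.2 CPM in replicate 5, with the other 5 libraries from 14.2 to 16.7 CPM, and in controls at ZT20 it was at 24.4 CPM in replicate 1, with the others from 16.7 to 18.8 CPM. *Nr1d1* was the highest in the same 2 libraries, at 58.2 CPM in replicate 5 of the controls at ZT8, where the next was 49.7 CPM, and at 63.6 CPM in replicate 1 of the controls at ZT20, where the next was 40.0 CPM. No library stood apart for *Arntl*, *Arntl2* or *Npas2* in any of the 4 conditions.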

How the results depend on the processing

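*Arntl* was called lower in *ChAT-BKO* neurons under every alternative run and with each library left out, at ZT8 (log2 fold change from -1.73 to -1.56), at ZT20 (-2.25 to -2.01) and over both times. *Npas2* over both times, at 0.72 with an adjusted p of 0.0551, passed with DESeq2 (0.72), filterByExpr (0.71), limma voom (0.80) and the length slope as a covariate (0.68), and did not pass with DESeq2 size factors, no filter or the replicate block; with 1 library left out it ran from 0.64 to 0.80. *Arntl2* lay so near 0 that its sign turned. At ZT8 it was -0.00058 with DESeq2 size factors, -0.00086 without a filter, -0.00027 with filterByExpr, -0.0062 with the replicate block, -0.0038 with limma voom, -0.013 with the length slope and -0.00022 with all 24 libraries, and from -0.061 to 0.12 with 1 library left out. With the length slope it was -0.032 at ZT20 and -0.014 over both times, and with 1 library left out it ran from -0.036 to 0.22 and from -0.013 to 0.11. On the CPM scale the *Arntl2* difference at ZT8 was 0.0011 CPM, against -0.01 in log2 CPM. With 1 library left out, the difference of effects ran from -0.025 to 0.23 for *Arntl2* and from -0.15 to 0.023 for *Clock*, and *Arntl* at ZT20 against ZT8 in controls from -0.040 to 0.13. None of these values was called.

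The number of genes called at ZT8 (40) was 70 with DESeq2, 69 with the replicate block, 159 with the length slope and 19 to 42 with 1 library left out. At ZT20 (50) it was 93 with DESeq2, 165 with the length slope and 29 to 69 with 1 library left out, and over both times (142) it was 225, 412 and 120 to 191. For the difference of effects it was 0, and 1 with the length slope. For ZT20 against ZT8 it was 25 in controls, with 127 by DESeq2, 86 with the replicate block, 354 with the length slope and 11 to 28 with 1 library left out, and 62 in *ChAT-BKO* neurons, with 218 by DESeq2, 486 with the length slope, 140 with all 24 libraries and 33 to 56 with 1 library left out. Same-numbered libraries did not deviate together throughout (lowest correlation -0.276, and 4 of 24 libraries correlated best with their own number). Between controls at ZT8 and ZT20, where the replicate block gave 86 calls against 25, their correlations ran from 0.00918 (replicate 1) to 0.356 (replicate 2). Whether replicate numbers share an effect was not tested. The replicate block was not taken as a paired analysis, and it changed no other call of the 4 genes. The cause of these changes was not tested.

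On library totals, the log2 ratio to the input was -0.40, -2.04, -0.33 and -2.48 for *Arntl* (controls and *ChAT-BKO* at ZT8, then at ZT20), -2.07, -1.88, -1.90 and -1.78 for *Clock*, -0.68, -0.69 and -0.40 for *Arntl2* (without *ChAT-BKO* at ZT20), and -2.61, -2.68 and -1.93 for *Npas2* (without controls at ZT8). With coding length, the *Npas2* share was 6.43%, 7.87%, 7.63% and 11.5% in the same order, and the partner ratio was 1.22, 2.98 and 1.28 without *ChAT-BKO* at ZT20. With the longest transcript, the share in *ChAT-BKO* at ZT20 was 22.1% and the ratio 0.693, 1.64 and 0.733.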
